A study of Homo sapiens with 18 samples.

Results

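The nuclear genes for the subunits of oxidative phosphorylation were followed through knockdown and overexpression of RAD21 in 2 lung adenocarcinoma cell lines. They numbered 88 of the 58735 genes counted. They were chosen by annotation and symbol, with no use of measured values: protein-coding genes off the mitochondrial chromosome whose symbols start with NDUFA, NDUFB, NDUFC, NDUFS or NDUFV followed by a number only, SDHA to SDHD, and symbols that start with UQCR, with COX4 to COX8 or with ATP5. Complex I had 37 members, complex II 4, complex III 9, complex IV 17 and complex V 21. The symbols also took in ATP5IF1, an inhibitor of ATP synthase, COX7A2L, a factor of respiratory supercomplexes, ATP5S, an ATP synthase-related protein, UQCRHL, a near copy of UQCRH, and the read-through gene ATP5MF-PTCD1. NDUFA4 was counted in complex I by its symbol, though it is known as a subunit of complex IV. The symbols left out CYC1, CYCS, NDUFAB1 and NDUFA4L2, which are given apart.

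Oxidative phosphorylation uses the electrons of NADH and succinate to drive the making of ATP at the inner mitochondrial membrane. Complexes I and II take the electrons in, complex III passes them to cytochrome c, complex IV hands them to oxygen, and complex V, the ATP synthase, uses the proton gradient that complexes I, III and IV build. Complexes I, III, IV and V join nuclear-encoded subunits with subunits made from mitochondrial DNA, while complex II is wholly nuclear-encoded. Several subunits of complex IV exist as tissue-specific isoforms, such as the testis forms COX6B2 and COX7B2 and the muscle forms COX6A2 and COX7A1.

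Cohesin is a ring-shaped complex that pairs sister chromatids and extrudes loops of chromatin, and RAD21 is its kleisin, the protein that bridges the ring. It was knocked down with a short hairpin RNA in A549 and in H358 (shRAD21, beside the control shNC) and overexpressed in A549 (RAD21OE, with empty vector, EV, as its control). There were 6 groups with 3 libraries of unsorted cultured cells in each, and every control carried a vector as well. The labels date the knockdown libraries to April and the overexpression libraries to July, so that each comparison stays within a date. No label says whether the 3 libraries of a group came from separate cultures, so that the spread behind a p-value here may be only technical.

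The libraries of the knockdown held 15155077 to 19277568 counts and those of the overexpression 13024640 to 14276335. RAD21 stood at 252.9 to 256.9 CPM (counts scaled to a common library size) in A549 shNC and at 101.1 to 131.8 in shRAD21, at 568.8 to 602.8 and 378.8 to 432.6 in H358, and at 194.4 to 208.6 in EV and 1306 to 1520 in RAD21OE. The epithelial keratin KRT8 stood at 1493 CPM or more in all 18 libraries. Other epithelial markers were low in A549: EPCAM reached at most 12.2 CPM and KRT19 at most 36.5 CPM there, beside at least 470.1 and 1249 CPM in H358. The lung marker NKX2-1 reached at most 0.734 CPM in A549, beside at least 113.8 CPM in H358. SFTPB, which makes surfactant protein B, reached at most 0.318 CPM in either line. Of 8 leukocyte, endothelial and fibroblast markers, COL1A1 was the highest at up to 41.9 CPM, and no other passed 4.55 CPM. In 2 groups the third library stood apart. A549 shRAD21 replicate 3 differed from its replicates by a median of 0.313 and 0.304 log2 units over the genes, and RAD21OE replicate 3 by 0.269 and 0.231, against at most 0.146 between other replicates. The log2 deviation of a gene from its group mean also followed its GC content in these libraries, with a Spearman rho of 0.586 and 0.672 across genes. In the libraries of the other groups rho lay between -0.296 and 0.227. The replicates of the 2 libraries had -0.567 to -0.379, but deviations from a shared mean of 3 balance out, so that these are not separate evidence.

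In A549, the knockdown of RAD21 left the subunits as a group near their control levels. Of 83 members tested, 10 rose and 8 fell, which is 21.7%, beside 25.2% of all 18939 genes tested (14.4% higher and 10.9% lower). Their median log2 fold change was 0.00, as for all genes, and the 95% interval of 59 of the 83 lay within 0.5 log2 units of 0. A gene is called higher or lower, or said to rise or fall, where its adjusted p was below 0.05 by edgeR's quasi-likelihood test with Benjamini-Hochberg adjustment over all genes tested. Whether the groups of a called member overlapped describes the same values that gave the call, and is no separate support for it. Scaling by library totals alone, or dropping the filter on low counts, each gave 4 members higher and 9 lower. These settings also moved the median of all genes, by -0.049 and -0.029, and no share of all genes is given for them. In bulk RNA, a smaller share of a kind of cell and less RNA per cell cannot be told apart. The 7 epithelial markers summed to 7124 to 7547 CPM in shNC and to 11270 to 13970 CPM in shRAD21, and their part in these results was not tested.

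In complex I, 5 members rose and 3 fell. NDUFV2, which carries an iron-sulfur cluster in the NADH-oxidising arm, rose most. It stood at 3.60, 3.41 and 3.05 CPM in shNC and at 9.48, 7.68 and 6.34 CPM in shRAD21. The groups did not overlap, and the log2 fold change was 1.22 ± 0.19 (SE, n = 3 per group, edgeR adjusted p = 8.49e-05). NDUFV2 was the 1 member of the 18 that kept its call under every alternative analysis run for it. Its level is uncertain, since 28.4% of its exon bases overlap AP005263.1 on the same strand and a pseudogene, NDUFV2P1, shares sequence with it.

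The other 4 members of complex I that rose were NDUFA10, NDUFS1, NDUFA5 and NDUFV3, by 0.22 to 0.30 log2 units. NDUFA10, an accessory subunit, went from 117.8 to 120.9 CPM in shNC to 134.6 to 149.5 CPM in shRAD21. NDUFS1, the largest iron-sulfur subunit of the arm, went from 143.9 to 147.7 CPM to 155.0 to 180.1 CPM. In neither did the groups overlap. The call of NDUFS1 was lost when trends on GC content and exon length were taken out (adjusted p = 0.657), as were those of NDUFA5 (0.392) and NDUFV3 (0.116).

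The 3 that fell were NDUFB7, NDUFV1 and NDUFB3. NDUFV1, the flavin-binding partner of NDUFV2, stood at 136.8, 137.7 and 124.6 CPM in shNC and at 91.1, 87.7 and 131.9 CPM in shRAD21 (log2 fold change -0.36 ± 0.11, adjusted p = 0.0234). The shRAD21 replicate 3 lay within the range of the controls and the others below it. NDUFB7, an accessory subunit of the membrane arm, showed the same layout, with 34.2 to 41.1 CPM in shNC and 22.02, 21.3 and 35.5 CPM in shRAD21. NDUFB3, also of the membrane arm, fell by 0.29 with groups that did not overlap.

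No member of complexes II and III was called with all libraries and no correction for GC content, whether by edgeR, DESeq2 or limma-voom, and 0 of 4 and 1 of 9 had an unadjusted edgeR p under 0.05. With the GC and length correction SDHC, an anchor subunit of complex II, was called lower (-0.16 ± 0.06, adjusted p = 0.0352) and UQCRQ higher (0.20 ± 0.08, adjusted p = 0.0494). Without that correction the 4 succinate dehydrogenase genes lay between 0.01 and 0.11 log2 units above their controls, and the 95% interval of each stayed within 0.5. The flavoprotein gene SDHA, for example, stood at 158.8 to 172.7 CPM in shNC and at 163.5 to 198.7 CPM in shRAD21. The 9 members of complex III ranged from -0.15 to 0.17.

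In complex IV, COX5A and COX7B rose, and COX6B2, COX8A and COX7A2L fell. COX7B stood at 47.8, 53.5 and 48.8 CPM in shNC and at 73.1, 70.6 and 53.1 CPM in shRAD21 (log2 fold change 0.39 ± 0.10, adjusted p = 0.00792). COX8A, the ubiquitous form of the smallest class of subunits, stood at 93.3, 104.6 and 95.1 CPM in shNC and at 48.1, 54.7 and 103.6 CPM in shRAD21 (-0.51 ± 0.18, adjusted p = 0.0474). In both genes the third shRAD21 library lay within the range of the controls, and the other two lay well outside it. COX6B2, the testis form of subunit VIb, was low throughout, at 1.06 to 1.34 CPM in shNC and 0.367 to 0.750 CPM in shRAD21, with no overlap (-1.16 ± 0.34, adjusted p = 0.0175). AC020922.1 overlaps 30.9% of the exon bases of COX6B2 on the same strand, and AP000721.1 overlaps 34.5% of those of COX8A. The levels of COX6B2 and COX8A are thus uncertain as well.

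In complex V, 3 members rose and 2 fell. The central stalk gene ATP5F1C stood at 147.5, 160.7 and 151.4 CPM in shNC and at 209.2, 195.8 and 166.7 CPM in shRAD21, with no overlap (0.32 ± 0.08, adjusted p = 0.00598). The catalytic beta subunit ATP5F1B rose by 0.14 and the peripheral stalk gene ATP5PB by 0.21, both close to the threshold (adjusted p = 0.0498 and 0.0428). ATP5MF of the membrane part fell by 0.35, with overlapping groups, and ATP5MC2, one of the genes for the c-ring, by 0.21. ATP5MC1 and ATP5MC3, which encode the same mature c subunit, were not called, at -0.14 and 0.08.

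Without A549 shRAD21 replicate 3 the same comparison called 37 members, 15 higher and 22 lower, beside 43% of all genes. They included UQCRC2, UQCRB, UQCRC1 and UQCRH of complex III. Of the 18 calls above, 17 were among them. COX8A then had a log2 fold change of -0.93 ± 0.07 and COX5B, which is not called above, of -0.57 ± 0.08. Without any other single library of the comparison, 3 to 9 members were called. A fit of the 6 A549 libraries alone called 1, NDUFV2. With the trends on GC content and exon length taken out, 27 members were called, 13 of them among the 18. For these fits, other than that without replicate 3, no share of all genes is given. The 65 members not called in the whole comparison ranged from -0.83 to 0.83.

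In H358, where RAD21 fell less than in A549, few of the subunits were called with the knockdown. NDUFB9 and NDUFB10 rose and COX6B2 fell, 3 of 83 members or 3.61%, beside 8.4% of all genes tested (3.78% higher and 4.62% lower). The median log2 fold change was 0.05, against 0.00 over all genes, and for 66 of the 83 members the interval lay within 0.5. NDUFB9, a subunit of the membrane arm of complex I, stood at 71.1, 69.5 and 71.1 CPM in shNC and at 82.6, 92.0 and 91.0 CPM in shRAD21 (0.33 ± 0.08, adjusted p = 0.0218). NDUFB10, of the same arm, stood at 48.4, 50.5 and 40.9 CPM and at 57.4, 61.4 and 56.1 CPM (0.32 ± 0.10, adjusted p = 0.0496). COX6B2 stood at 9.38, 10.5 and 7.84 CPM in shNC and at 5.28, 6.82 and 4.88 CPM in shRAD21 (-0.71 ± 0.17, adjusted p = 0.0153). Its same-strand overlap with AC020922.1 makes its level uncertain here too. None of the 3 had overlapping groups. The 80 members not called ranged from -0.46 to 0.41, and leaving out any 1 of the 6 libraries brought the count to 0 or 1. A fit of the 6 H358 libraries alone called 15, 12 of them higher. No share of all genes is given for these alternative fits.

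Overexpression of RAD21 in A549 raised 4 and lowered 3 of 80 members tested, or 8.75%, beside 27.8% of all 15462 genes tested (14.1% higher and 13.7% lower). The median log2 fold change was 0.04, against -0.01 over all genes, and the interval of 64 of the 80 lay within 0.5. The plot of fold changes by complex shows the 3 comparisons side by side.

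**Figure D1:**
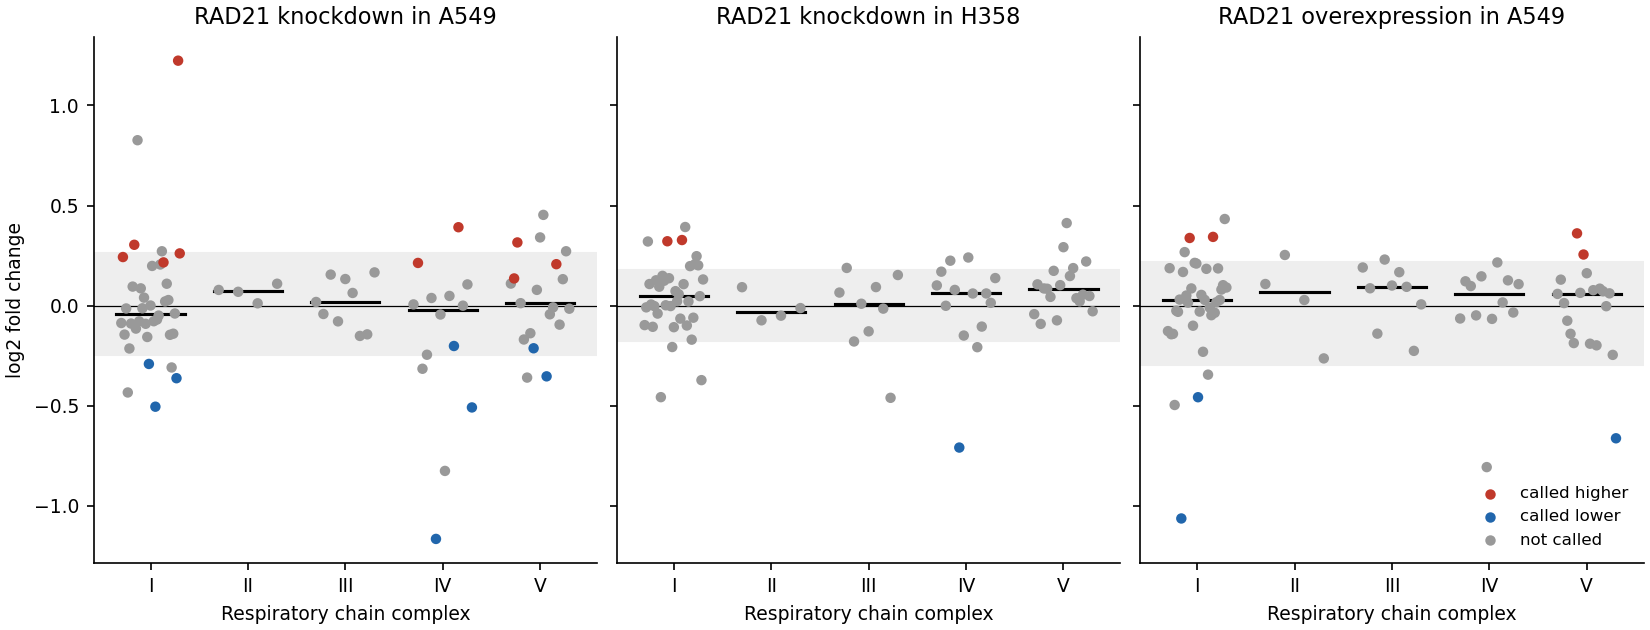
log2 fold change of each tested member (points) by complex in the 3 comparisons, with the median of each complex as a black bar and the middle 50% of all genes tested as a grey band. Red and blue points were called higher and lower, grey points were not called. Medians of all 5 complexes lie near 0, and NDUFV2 at 1.22, COX6B2 at -1.16 and NDUFA5 at -1.06 lie farthest from it among the called members.

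The 4 that rose with overexpression were NDUFS3 and NDUFB10 of complex I and the c-ring genes ATP5MC1 and ATP5MC3 of complex V. ATP5MC1 stood at 128.6, 112.2 and 121.7 CPM in EV and at 142.9, 146.6 and 176.2 CPM in RAD21OE (0.36 ± 0.10, edgeR adjusted p = 0.0143). NDUFS3, a core subunit of the arm that reduces ubiquinone, stood at 47.8, 45.5 and 47.3 CPM and at 57.7, 55.0 and 65.6 CPM (0.34 ± 0.10, adjusted p = 0.018). NDUFB10 rose by 0.34 and ATP5MC3 by 0.26. In all 4 the groups did not overlap, and the third RAD21OE library was the highest.

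The 3 that fell were NDUFA5, ATP5S and NDUFB5. NDUFA5, an accessory subunit of complex I, stood at 30.5, 33.8 and 36.4 CPM in EV and at 24.7, 15.96 and 7.42 CPM in RAD21OE (-1.06 ± 0.28, adjusted p = 0.0127). The RAD21OE libraries themselves spread over a range wider than that of the controls, with the third at the bottom. Without that library the log2 fold change was -0.72 ± 0.13, still called, while DESeq2's Wald test did not call it (adjusted p = 0.09). ATP5S stood at 22.2 to 22.6 CPM in EV and at 16.3, 16.2 and 9.97 CPM in RAD21OE (-0.66 ± 0.16, adjusted p = 0.00982) and kept its call under every alternative. NDUFB5 fell by 0.46 with overlapping groups.

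No member of complexes II, III and IV was called with overexpression by edgeR with TMM scaling, all libraries and no correction for GC content, and 1 in each had an unadjusted p under 0.05. SDHB, the iron-sulfur subunit of complex II, lay just past the threshold at 0.25 ± 0.09 (adjusted p = 0.0505) and was called when DESeq2's size factors replaced TMM, while SDHD stood at -0.26 ± 0.15 and SDHC at 0.03 ± 0.08. Without RAD21OE replicate 3, 13 members were called, 8 higher and 5 lower, beside 34.8% of all genes. Among them were NDUFV2 (0.61 ± 0.19, adjusted p = 0.0159), SDHB (0.20 ± 0.07, adjusted p = 0.0304) and COX4I1 (-0.15 ± 0.05, adjusted p = 0.0307). Without EV replicates 1, 2 and 3 in turn, 3, 1 and 2 were called (no share of all genes is given for these fits). With the trends on GC content and exon length taken out, 18 were called, 13 higher and 5 lower (here too no share of all genes is given). Those of complexes II to IV were SDHB (0.25, adjusted p = 0.006), UQCRFS1 (0.20, adjusted p = 0.0206), COX7A2 (0.33, adjusted p = 0.00632) and COX7B (0.25, adjusted p = 0.0348).

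In all, 25 of the 88 members, 5 of which were not tested, were called in at least 1 of the 3 comparisons, 3 in 2 of them and 0 in all 3. These counts have no share of all genes beside them. In the single comparisons 25.2%, 8.4% and 27.8% of all genes were called. The 3 members called in 2 comparisons were COX6B2, which fell in both knockdowns, NDUFB10, which rose with the knockdown in H358 and with overexpression, and NDUFA5, which rose with the knockdown in A549 and fell with overexpression. For NDUFA5 the first of these calls was lost with the GC and length correction (adjusted p = 0.392), and the second was kept (-0.75, adjusted p = 0.00168).

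The counts summed over all the members stayed near their controls in the knockdowns. In CPM, the 88 members summed to 6455, 6688 and 6218 in A549 shNC and to 6629, 6405 and 6868 in shRAD21. In H358 they summed to 5045, 4926 and 4760 in shNC and to 5239, 5007 and 4968 in shRAD21. In the overexpression they summed to 6755, 6497 and 6690 in EV and to 6737, 6750 and 7540 in RAD21OE. Groups overlapped in both knockdowns, and in the overexpression 1 library, replicate 3, stood well above the controls. By complex some sums did not overlap. In H358, complex I had 1415 to 1468 CPM in shRAD21 beside 1332 to 1404 in shNC, and complex V 1702 to 1790 beside 1635 to 1695. Complex III had 822.5 to 918 CPM in RAD21OE beside 784.9 to 810.6 in EV. No complex had a sum wholly below its controls.

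The 13 subunits encoded by mitochondrial DNA, which join the members in complexes I, III, IV and V, did otherwise with overexpression. They summed to 62900, 67680 and 64790 CPM in EV and to 32910, 33140 and 33260 CPM in RAD21OE, and all 13 fell, with a median log2 fold change of -1.12 beside 0.04 for the nuclear members. MT-CO3 of complex IV fell most, by 1.61 ± 0.07 (adjusted p = 1.64e-08), and MT-ND2 of complex I least, by 0.37 ± 0.10 (adjusted p = 0.0158). In A549 the knockdown libraries stood at 93120, 86370 and 66610 CPM beside 75230 to 77610 CPM in shNC, the third again apart, and in H358 at 44670 to 45340 CPM beside 42330 to 45620 CPM. MT-ND1 was the 1 mitochondrial subunit called in either knockdown, higher in both (0.20 and 0.27).

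**Figure D2:**
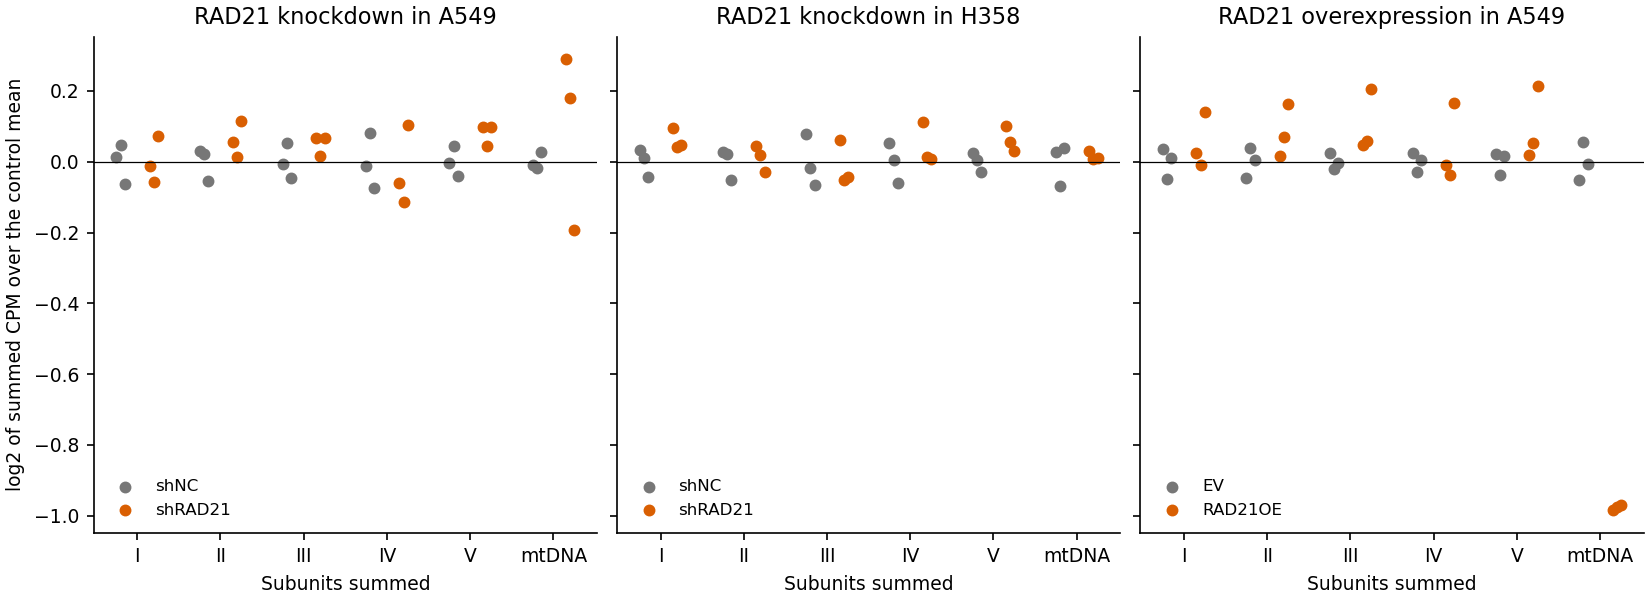
log2 of the CPM summed over the members of each complex, and over the 13 subunits of mitochondrial DNA (mtDNA), in each library relative to the mean of its control group (points, 3 per group, grey for controls and orange for changed RAD21). Sums over the nuclear-encoded complexes stay near the controls, while the mtDNA sums of the 3 RAD21OE libraries, at 32910 to 33260 CPM, lie about 1 log2 unit below EV.

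Neighbouring gene groups showed how the members sat among mitochondrial genes. With overexpression, 30 of 77 mitochondrial ribosomal protein genes rose and 1 fell, with a median of 0.23, beside 4 and 3 of the 80 members. The list had 40.3% of its genes called, against 27.8% of all genes. The 7 epithelial markers summed to 8234 to 8435 CPM in EV and to 10380 to 13570 CPM in RAD21OE. KRT8 and KRT18, the highest of them, rose by 0.49 and 0.54, while CDH1 fell by 0.36. EPCAM (-0.29) and KRT19 (-0.06) were not called. The part of these markers in the results with overexpression was not tested. Of 48 assembly factors for the 5 complexes, 8 rose and 2 fell (20.8%, below the share of all genes), among them NDUFAF1 for complex I (0.53, adjusted p = 0.0082), COA3 for complex IV (0.47, adjusted p = 0.00729) and COX14 for complex IV (-0.41, adjusted p = 0.0383). Of 11 regulators of mitochondrial biogenesis 27.3% were called: the mitochondrial RNA polymerase POLRMT rose by 0.51 and the coactivator PPRC1 by 0.55, and GABPA, a subunit of the ETS-family factor that binds many of these promoters, fell by 0.50. CYC1, the cytochrome c1 subunit of complex III that the symbol rule leaves out, rose by 0.54 (adjusted p = 0.00113), from 202.6 to 227.5 CPM in EV to 289.2 to 359.0 CPM in RAD21OE. Of 13 tricarboxylic acid cycle genes 3 rose and 1 fell (30.8%), led by SUCLG2 at -0.61 and IDH3A at 0.40, and of 13 coenzyme Q genes 2 rose and 1 fell (23.1%), led by PDSS1 at 0.44, COQ3 at 0.39 and COQ10B at -0.39.

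With the knockdown in A549, 7 assembly factors rose and 1 fell, or 16.7%, beside 25.2% of all genes. NUBPL, which inserts iron-sulfur clusters into complex I, rose by 0.61 (adjusted p = 0.000426), TMEM126B by 0.42, and ECSIT fell by 0.35. The coactivator PPARGC1A rose by 1.60 ± 0.23 (adjusted p = 3.73e-05), from 1.67 to 2.91 CPM to 4.64 to 7.43 CPM, and YY1 by 0.28, 2 of the 11 regulators or 18.2%. SUCLG2 (0.69), FH (0.39) and the citrate synthase gene CS (0.29) rose among the 13 cycle genes (23.1%), and none of the 13 coenzyme Q genes was called by edgeR, with 1 at an unadjusted p under 0.05. Cytochrome c itself, CYCS, rose by 0.24, and NDUFAB1, the acyl carrier protein of complex I, fell by 0.22. With the knockdown in H358, 3 assembly factors rose (NDUFAF8 by 0.52, SDHAF2 by 0.43, NDUFAF6 by 0.38) and TTC19 fell by 0.29, or 8.33% of the 48, beside 8.4% of all genes. COQ8A rose by 0.52 as the 1 called coenzyme Q gene, no regulator and no cycle gene was called by edgeR (0 and 1 at an unadjusted p under 0.05), and NDUFA4L2 fell by 0.87.

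Whether the knockdown acted differently in the lines was tested as a difference of the 2 log2 fold changes. RAD21 itself had log2 fold changes of -1.08 in A549 and -0.51 in H358 (difference 0.57 ± 0.12, edgeR adjusted p = 0.00228). The line and the depth of the knockdown therefore cannot be told apart in this test. Of 83 members, 2 differed upwards in H358 and 5 downwards, or 8.43%, beside 17.6% of all genes (7.61% upwards and 9.94% downwards). NDUFV2 differed most, at -1.59 ± 0.25 (H358 minus A549, adjusted p = 0.000238), from 1.22 in A549 and -0.37 in H358. Its levels in the knockdown of A549, 6.34 to 9.48 CPM, overlapped those of control H358, at 6.72, 9.54 and 8.44 CPM. ATP5F1C (-0.41), COX7B (-0.50), NDUFS1 (-0.31) and UQCRB (-0.33) were the other members with a smaller fold change in H358, and ATP5MF (0.50) and NDUFB9 (0.38) had a larger one. Without A549 shRAD21 replicate 3, 32 members differed, beside 37.5% of all genes, and leaving out any other library gave 1 to 5. Over the 83 members this difference followed GC content with a Spearman rho of 0.513 across genes, against 0.354 over all genes, and the fold changes of the knockdown in A549 did so with -0.385, against -0.326.

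Between the lines themselves most members differed. Between control H358 and control A549, 21 members were higher and 39 lower in H358, or 72.3%, beside 76% of all genes tested (39.1% higher and 36.8% lower). The median difference over the members was -0.17, against 0.05 over all genes. It was 0.42 in complex III and -0.23, -0.29 and -0.17 in complexes I, IV and V. Scaling by library totals alone moved the median of all genes up by 0.22 and gave 30 members higher and 26 lower, so that the split between the directions depends on the scaling. For that scaling no share of all genes is given. RAD21 itself was higher in control H358 by 1.20 ± 0.08.

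**Figure D3:**
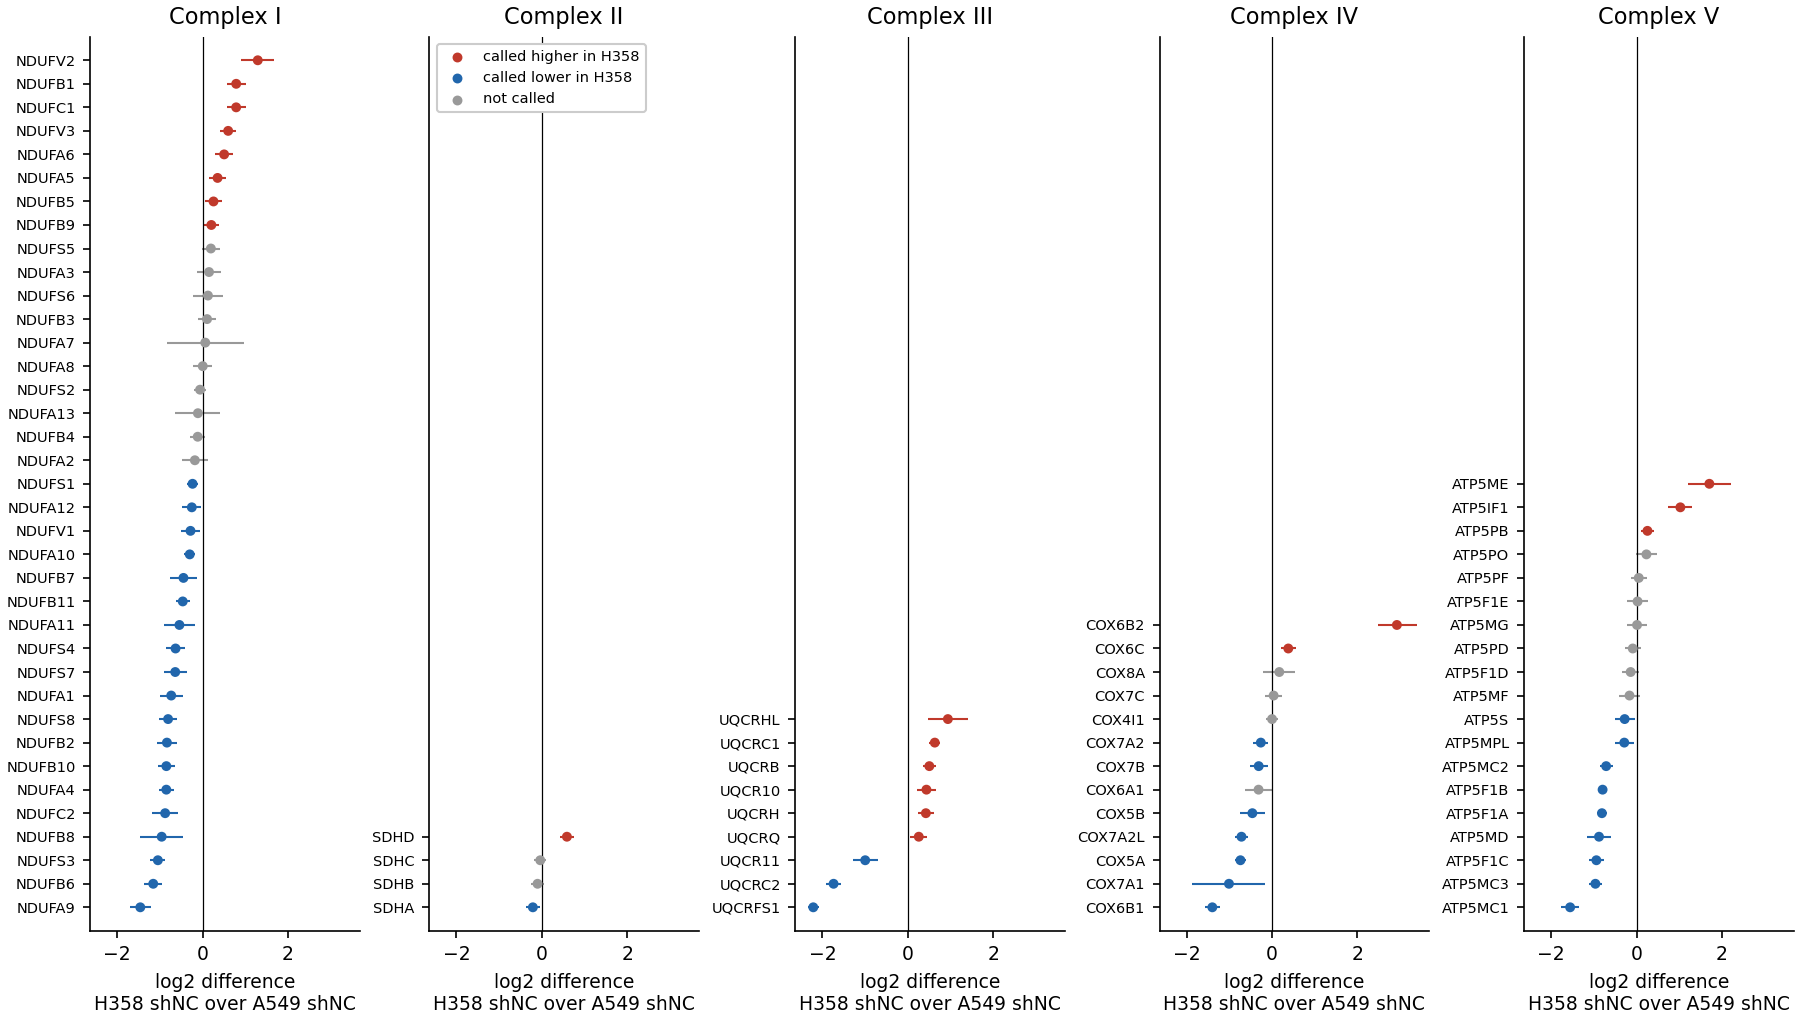
log2 difference of each tested member between control H358 and control A549 (points, with 95% intervals as lines), sorted within each complex, with red and blue for members called higher and lower in H358. COX7B2, with 0 counts in A549, is not drawn. Complex III splits into 6 members higher and 3 lower, with UQCRFS1 at -2.22 as the lowest of the members drawn.

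Members of complex III differed in both directions. All 9 members differed, 6 higher and 3 lower in H358. UQCRFS1, the Rieske iron-sulfur protein that passes electrons to cytochrome c1, stood at 271.6, 292.3 and 263.2 CPM in A549 and at 60.3, 58.6 and 59.2 CPM in H358 (-2.22 ± 0.06, adjusted p = 5.17e-16). UQCRC2, a core protein, stood at 198.8, 206.1 and 200.7 CPM and at 66.7, 58.1 and 56.6 CPM (-1.74 ± 0.08, adjusted p = 1e-12). Its partner core protein UQCRC1 went the other way, with 144.1, 146.6 and 140.6 CPM in A549 and 227.3, 225.7 and 216.0 CPM in H358 (0.63 ± 0.06). The small subunits UQCRB, UQCR10, UQCRH and UQCRQ were higher in H358 by 0.26 to 0.51, and UQCR11 was lower by 1.00 ± 0.14. Neither UQCRFS1 nor UQCRC2 was called in a RAD21 comparison by edgeR with all libraries and no GC correction. UQCRFS1 differed in level between the A549 control groups of April and July, with 170.0 to 172.2 CPM in EV, which were scaled apart.

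Complex IV held the widest contrasts. COX7B2, the testis form of subunit VIIb, had 0 counts in all 12 A549 libraries and 23.1, 22.8 and 20.9 CPM in control H358. Against a floor of 3 counts over the A549 controls, it was at least 338-fold higher in H358. With the knockdown in H358 it stood at 23.9, 23.6 and 22.3 CPM (0.06 ± 0.11, not called). COX6B2 was 2.93 ± 0.22 higher in H358, at 9.38, 10.5 and 7.84 CPM beside 1.22, 1.34 and 1.06 CPM, while its ubiquitous counterpart COX6B1 was lower by 1.40 ± 0.08, at 61.6, 56.9 and 58.3 CPM beside 155.7, 166.4 and 143.8 CPM. The same-strand overlap of COX6B2 with AC020922.1 applies to this contrast too. COX4I1, the common form of subunit IV, did not pass the test, at 202.8 to 209.8 CPM in H358 and 199.0 to 218.8 CPM in A549 (95% interval -0.14 to 0.14).

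In complexes V and I the larger differences were mostly lower in H358. The subunits of the F1 part, ATP5F1A, ATP5F1B and ATP5F1C were lower by 0.81, 0.80 and 0.94, and the c-ring genes ATP5MC1, ATP5MC2 and ATP5MC3 by 1.56, 0.71 and 0.97. ATP5IF1, the inhibitor, was higher by 1.03 ± 0.13, at 43.7 to 53.0 CPM beside 21.5 to 26.5 CPM. ATP5ME was higher by 1.71 ± 0.24, though 61.6% of its exon bases lie opposite MYL5 and no source used here gives the strand setting of the counting. In complex I NDUFA9 was lowest, at 6.38, 7.86 and 7.78 CPM beside 22.02, 18.3 and 20.3 CPM (-1.46 ± 0.11), and NDUFV2 highest (1.29 ± 0.18). In complex II SDHD was higher by 0.59 ± 0.08 and SDHA lower by 0.21 ± 0.08, while SDHB and SDHC were not called.

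**Figure D4:**
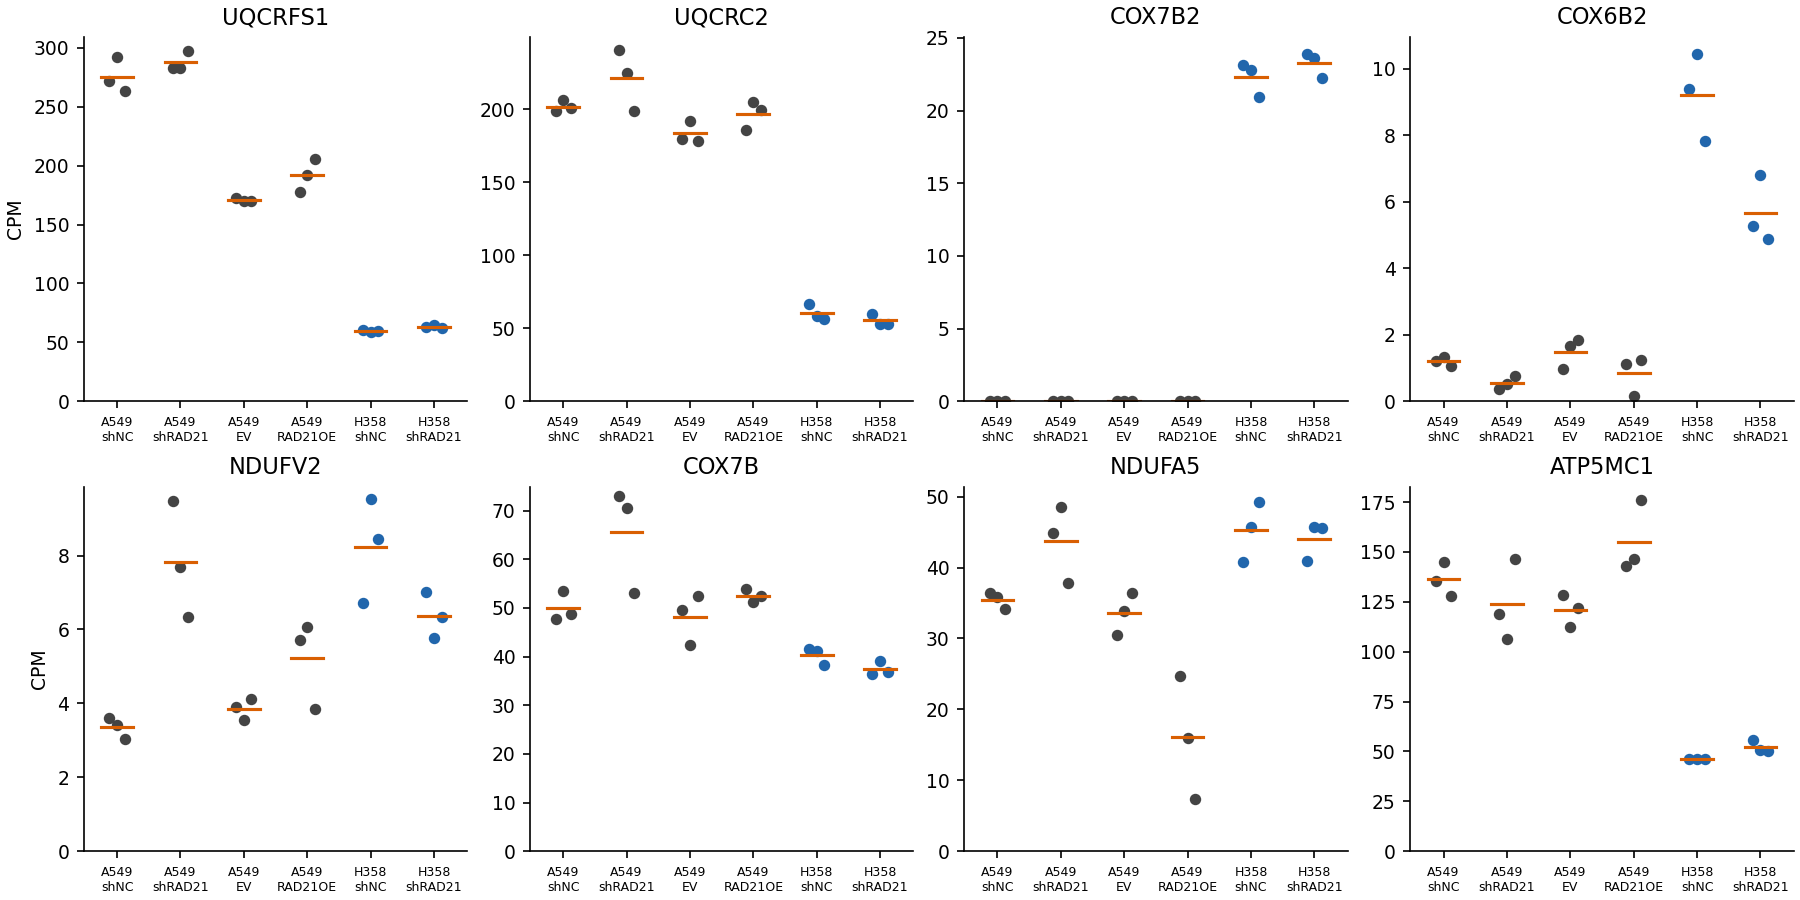
CPM of 8 members in each of the 18 libraries (points, 3 per group) with the group mean as an orange bar, A549 in dark grey and H358 in blue. The overexpression groups, EV and RAD21OE, come from a table that was scaled on its own. UQCRFS1, UQCRC2 and ATP5MC1 are lower in both H358 groups than in the A549 groups, COX7B2 and COX6B2 higher, and NDUFV2 in A549 shRAD21 reaches 6.34 to 9.48 CPM.

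The start regions of the 4 members that differed most between the control lines are shown because they differ in kind as well: 2 are rich and 2 poorer in CpG. Each is the stretch of 250 bases before the start that RefSeq gives (GRCh38.p14), read 5′ to 3′ on the strand of the gene. Capitals mark matches to the motifs searched. UQCRFS1 lies at chr19:29213152-29213401, minus strand, UQCRC2 at chr16:21953111-21953360, plus strand, COX6B2 at chr19:55354720-55354969, minus strand, and COX7B2 at chr4:46909246-46909495, minus strand. The first 3 lie wholly or partly inside the GENCODE extent of their genes, which start farther out.
UQCRFS1: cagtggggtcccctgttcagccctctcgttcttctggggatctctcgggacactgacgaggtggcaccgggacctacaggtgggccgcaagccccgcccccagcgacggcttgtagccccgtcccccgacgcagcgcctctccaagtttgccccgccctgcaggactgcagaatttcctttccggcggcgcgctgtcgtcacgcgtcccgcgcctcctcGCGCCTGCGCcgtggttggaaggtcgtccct
UQCRC2: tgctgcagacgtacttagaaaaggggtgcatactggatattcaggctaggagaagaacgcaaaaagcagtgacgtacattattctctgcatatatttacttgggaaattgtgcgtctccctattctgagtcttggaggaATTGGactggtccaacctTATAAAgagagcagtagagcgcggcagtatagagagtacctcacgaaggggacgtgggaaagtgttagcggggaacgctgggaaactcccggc
COX6B2: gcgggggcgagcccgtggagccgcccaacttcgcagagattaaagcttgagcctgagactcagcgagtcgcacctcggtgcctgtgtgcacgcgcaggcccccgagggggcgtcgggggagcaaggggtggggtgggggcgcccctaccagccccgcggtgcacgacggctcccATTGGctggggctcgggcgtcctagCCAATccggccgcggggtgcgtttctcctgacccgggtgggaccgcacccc
COX7B2: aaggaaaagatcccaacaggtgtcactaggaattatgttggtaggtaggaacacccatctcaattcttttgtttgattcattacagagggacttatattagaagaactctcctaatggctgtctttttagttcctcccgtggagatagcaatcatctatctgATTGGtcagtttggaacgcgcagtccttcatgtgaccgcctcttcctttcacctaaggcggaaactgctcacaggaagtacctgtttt

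These stretches hold 27, 11, 26 and 5 CpG in the order shown. The start of UQCRFS1 has a match to the NRF1 motif, that of UQCRC2 a TATA box and a CCAAT box, that of COX6B2 a pair of CCAAT boxes, and that of COX7B2 a single one. A promoter was on hand for 67 of the 88 members, and in the 250 bases before the start these held a median of 18 CpG, against 11 over 35116 promoters. Motifs were counted in the 300 bases from 250 before to 50 after the start. The core motif of NRF1, searched on both strands like the others, was in 23.9% of member promoters and 5.8% of all. The ETS motif CCGGAAG was in 28.4% and 10.3%, and the YY1 motif AAGATGGC in 17.9% and 2.9%. CCAAT was in 34.3% and 34.6%, and TATAAA in 9.0% and 11.5%. These are matches of letters and not sites of binding.

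Levels were compared between genes as CPM per kilobase of merged exons, a scale that runs low for genes with long annotated exons. For some pairs the counts are given beside it. In A549 shNC the c-ring genes ATP5MC1, ATP5MC2 and ATP5MC3 stood at 52.1 ± 3.33, 40.6 ± 1.78 and 22.8 ± 1.97 CPM per kilobase (SD, n = 3), and in H358 shNC at 17.7 ± 0.06, 24.8 ± 1.21 and 11.7 ± 0.42. On this scale the order of ATP5MC1 and ATP5MC2 differed between the lines, but it rests on exon lengths of 2615 and 3991 bases. In counts ATP5MC2 was above ATP5MC1 in both lines, at 2177 to 2682 beside 1804 to 2224 in A549 shNC. In H358 shNC the counts were 1566 to 2071 beside 774 to 962. COX7B2 stood at 27.6 ± 1.46 and COX7B at 13.3 ± 0.59 CPM per kilobase in H358 shNC, whereas A549 shNC had COX7B at 16.6 ± 1.01 and COX7B2 at 0. The order of this pair in H358 also rests on exon lengths, 807 bases for COX7B2 and 3024 for COX7B. In counts COX7B was the higher, at 639 to 859 beside 350 to 475 in H358 shNC. COX6B1 stood above COX6B2 in both lines, at 165.9 ± 12.1 beside 0.32 ± 0.04 in A549 and 63.0 ± 2.61 beside 2.42 ± 0.34 in H358. COX7A2 stood at 24.3 ± 2.06 and COX7A1 at 1.30 ± 0.13 in A549 shNC, and UQCRH at 50.7 ± 1.81 and UQCRHL at 1.33 ± 0.18, though reads of the last pair can be split between near-identical copies.

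The filter on low counts left 5 members out of both tables: COX4I2, COX6A2, COX8C, ATP5MGL and ATP5MF-PTCD1. COX6A2 had 0 counts in all 18 libraries. COX4I2, a form linked to low oxygen, reached at most 0.367 CPM, in 1 EV library, COX8C at most 0.167 CPM, ATP5MGL 0.173 CPM in a single H358 library, and ATP5MF-PTCD1 at most 0.468 CPM. COX7A1, COX7B2 and NDUFA7 were tested in the knockdown table only. COX7A1 stood at 0.359 to 1.42 CPM and NDUFA7 at 0.280 to 1.09 CPM there, and neither was called in a RAD21 comparison. The members lie on 22 chromosomes, 12 of them on chromosome 19. Of the 88, 9 share 25% or more of their 75-base exon stretches with another gene, among them NDUFB8 and NDUFS7, and 31 share none.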

How the data were processed

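Gene expression was measured by RNA sequencing of total RNA from 18 libraries in 6 groups of 3, per the labels. The authors deposited unnormalized read counts for each gene in 2 tables, 12 libraries of the knockdown and 6 of the overexpression, with 0 count columns left unmatched. Per the submitters' processing notes, the build was hg38 and the tools were featureCounts 1.5.0-p3, HISAT2 2.0.5 and fastp. Gene positions in the tables equal GENCODE release 29 for all 58735 genes.

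Each table was fitted alone in R 4.3.3 with edgeR 4.0.16: filterByExpr, TMM scaling, 1 mean per group, and the two-sided quasi-likelihood F-test, with Benjamini-Hochberg adjustment over all genes tested and a threshold of 0.05. The biological coefficient of variation was 0.0864 (knockdown) and 0.0981 (overexpression). SE is the coefficient divided by the root of F, and CPM are TMM-scaled. Counting error limits low genes such as COX6B2 most, and the bound of at least 338-fold covers counting error only. The procedure was also run on simulated counts. These held no outlying library and no GC trend, so that the run does not bear on calls that depend on either. The check for pairing gave correlations of at most 0.067 between same-numbered libraries of compared groups, so that the numbers were not treated as pairs. That check cannot show that no culture or day was shared.

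Alternatives were DESeq2 1.42.0 (size factors and Wald test), limma-voom 3.58.1, other filters, library totals, a replicate block, GC and length offsets (splines of 5 df), fits of 6 libraries and each library left out. Figures were drawn in Python 3.11.15 with matplotlib 3.10.9. Genes named are up to 3 called members per direction, complex and comparison by smallest adjusted p, members called in 2 or more comparisons, complex II, isoform pairs, untested members, the 3 largest differences between lines, and up to 2 per direction of each other list. NDUFV3, NDUFA9, NDUFB8, NDUFS7, NDUFA4, UQCRC2, UQCRB, UQCRC1, UQCR10, UQCR11, UQCRQ, ATP5F1A, ATP5IF1, ATP5ME, COX5B, EPCAM and KRT19, the mitochondrial subunits and CS were named after their values were seen. The members and lists were chosen with earlier results of these data known.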

Additional observations from a re-analysis of the deposited data

Results flagged for a closer look

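In 7 members the log2 fold change of the knockdown differed between H358 and A549 by edgeR's test of that difference (H358 minus A549, adjusted p under 0.05). The difference was -1.59 for NDUFV2, -0.50 for COX7B, -0.41 for ATP5F1C, -0.33 for UQCRB, -0.31 for NDUFS1, 0.50 for ATP5MF and 0.38 for NDUFB9. UQCRB, a small subunit of complex III, stood at 70.4, 70.1 and 65.6 CPM in A549 shNC and at 79.7, 75.6 and 74.3 CPM in shRAD21, and at 102.0, 94.96 and 95.8 CPM and 91.0, 84.0 and 83.6 CPM in H358. The fold changes within each line (0.16 and -0.18) did not pass the test, and the groups overlapped in neither line. With trends on GC content and exon length taken out, the differences of UQCRB (-0.03, adjusted p = 0.934), NDUFS1 (-0.04, adjusted p = 0.733) and ATP5MF (0.26, adjusted p = 0.105) were not called, and 4 of the 7 were. NDUFV2 was the 1 of the 7 that passed under every alternative run for it. RAD21 fell less in H358 than in A549, so that line and depth of knockdown cannot be told apart in these differences.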

How the results depend on the processing

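Of the members called, 1 of 18 (knockdown in A549), 0 of 3 (knockdown in H358), 1 of 7 (overexpression), 1 of 7 (difference between the lines) and 44 of 60 (control lines) kept their call under every alternative. The called members otherwise lost calls without a change of sign, except SDHA between the control lines, which stood at 0.011 with library totals alone. Counts of called members outside 1.5 times the reported ones follow. For the knockdown in A549 a fit of the 6 libraries of the 2 groups called 1, and the replicate block 11. GC and length offsets called 27 there, just at 1.5 times, and only 13 of these were among the 18. For the knockdown in H358 such a fit called 15, and GC and length offsets together with a replicate block 5. For the overexpression, GC and length offsets called 18, with or without the block. For the difference between the lines, no filter on low counts gave 11. Leaving out 1 library gave 3 to 37 (knockdown in A549), 0 to 1 (knockdown in H358), 1 to 13 (overexpression), 1 to 32 (difference) and 53 to 58 (control lines). The cause of these shifts was not tested, and these counts have no share of all genes beside them here. Where leaving out an H358 library gave an edgeR count of 0, 7 to 11 members had an unadjusted p under 0.05, and with all libraries DESeq2's Wald test called 4 and limma-voom 2.

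With the replicate number as a block, 11, 2, 7, 5 and 59 members were called, in the order above, against 18, 3, 7, 7 and 60 without it. No share of all genes is given for the fits with a block. Same-numbered libraries of compared groups did not deviate together, so that the numbers do not pair them.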

Other observations

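Between the control lines, 76% of all genes tested were called, and the genes near the members that differed most are given against that share. Within 1000 kb of UQCRFS1, 4 of 5 tested protein-coding genes were lower in control H358 and 0 higher, with a median log2 difference of -1.80. Within the same distance of COX7B2, 5 of 5 were higher, with a median of 2.12. Around UQCRC2, 4 of 13 were higher and 5 lower (median 0.12), and around COX6B2, itself higher, 8 of 43 were higher and 24 lower (median -0.39). Whether any of these windows differs from the rest of the genome was not tested.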
